A study of Mus musculus with 2 samples.

Results

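Nonclassical monocytes were described among CD45+ cells of mouse melanomas: 1134 of the 14809 cells that passed the cell filters, 437 of 7134 in the PBS library and 697 of 7675 in the UDSP-Hep library. A cell was counted as one when it had UMIs (unique molecular identifiers, counts of captured RNA molecules) of at least 2 of Ace, Treml4, Adgre4, Ceacam1 and Cd300e, with Ace or Treml4 among them. It also needed a C1qa, C1qb and C1qc sum of at most 2 UMIs, under 20 UMIs of Ccl24, and 0 UMIs of Cd3e, Flt3, Fscn1 and S100a8. These genes chose the cells, so their levels are given as a description only. The name was taken from the rule and then checked against markers that the rule did not use.

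Nonclassical monocytes are a blood monocyte subset that crawls along the inner wall of vessels and clears cell debris there. They arise mainly from classical, Ly6C-high monocytes, and the transition depends on the nuclear receptor Nr4a1 and involves C/EBPbeta, which acts upstream of it. Their known marks are high CX3CR1, the receptor of fractalkine, low CCR2, the receptor that takes classical monocytes to inflamed tissue, and little Ly6C.

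The cells came from subcutaneous B16F10-OVA tumours, grafts of a mouse melanoma line that carries ovalbumin as a model antigen. Mice received PBS, a saline buffer, or UDSP-Hep, an agent that the labels name without describing, at days 10, 12, 14 and 16. Tumours were taken at day 19, leukocytes were sorted on the surface protein CD45, and droplet libraries were made on the 10x Genomics platform. Each group was a single library from 3 tumours, no file used here ties a cell to a tumour, and the labels used here give no mouse strain, sex or age.

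With 1 library per group there was no replicate and no test between groups. Values in pairs are PBS first, ratios are UDSP-Hep over PBS, and brackets hold 95% intervals. All intervals cover counting error only and not the spread between mice. Those of levels and of their ratios also leave out the spread between cells. Levels are CPM, the UMIs of a gene summed over the cells of a class and scaled to the summed UMIs of that class, so a level compares the same gene between classes or libraries.

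Promoters of 2 marker genes are shown because they held the recognition letters of C/EBP factors. Adgre4 encodes an adhesion G protein-coupled receptor of myeloid cells and was used by the rule. Ear2 encodes an eosinophil-associated ribonuclease and was not. The lines give, 5′ to 3′, the 250 bases before the RefSeq start of each gene on GRCm38.p6, chr17:55749734-55749983 for Adgre4 and chr14:44102404-44102653 for Ear2, both on the plus strand, with the C/EBP letters in capitals.
Adgre4: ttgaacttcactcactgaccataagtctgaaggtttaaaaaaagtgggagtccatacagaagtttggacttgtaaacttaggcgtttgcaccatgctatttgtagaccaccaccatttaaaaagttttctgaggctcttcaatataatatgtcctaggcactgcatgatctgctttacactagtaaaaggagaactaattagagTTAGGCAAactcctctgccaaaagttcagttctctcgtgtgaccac
Ear2: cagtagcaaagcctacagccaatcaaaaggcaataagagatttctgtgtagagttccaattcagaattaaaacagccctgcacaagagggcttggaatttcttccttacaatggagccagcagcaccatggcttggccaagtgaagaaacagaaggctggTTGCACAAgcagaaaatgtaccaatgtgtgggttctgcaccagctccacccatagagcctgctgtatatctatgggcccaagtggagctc

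The letters searched, on both strands and from 250 bases before to 50 after the start, were TTGCNNAA for C/EBP, GAGGAAGT for PU.1 and AAAGGTCA for NR4A receptors, and matches of different motifs may overlap. Of 19 marker genes, 15 had a RefSeq promoter. The C/EBP letters were in 2 of the 15 and in 10.8% of all 32851 promoters. The PU.1 letters were in 2 (Adgre4, after its start, and Fcgr4) and in 3.20% of all promoters. The NR4A letters were in 0 of the 15 and in 1.51% of all. A match is a description of these windows and not a binding site.

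The nonclassical monocytes held 3598519 and 5215387 UMIs, with medians of 7840 and 6849 UMIs and 2524 and 2392 genes per cell. Their UMI totals ran from 508 to 28825 in the PBS library and from 679 to 70161 in the UDSP-Hep library, where 3 cells had more than 30000. The libraries shared 25 cell barcodes, of which 0 and 1 belonged to a nonclassical monocyte. The doublet caller Scrublet marked 0.0138% and 0% of barcodes by its own threshold and so did not work here. Doublets were kept, and 9 and 33 nonclassical monocytes were among the barcodes with the highest scores. The UDSP-Hep library held more neutrophils (29 and 387 cells) and NK cells (275 and 862) and fewer classical monocytes (974 and 578) and C1q macrophages (698 and 360), all named by marker rules.

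Marker sums of NK cells, neutrophils, B cells and T cells were higher in the UDSP-Hep library inside the chosen cells. Those of basophils (6.39 and 0.575 CPM), plasmacytoid dendritic cells (230 and 190 CPM) and conventional dendritic cells (79.8 and 75.9 CPM) were lower. The NK cell sum was also higher there in classical monocytes (272 and 439 CPM) and C1q macrophages (33.9 and 396 CPM). The 7 NK cell markers summed to 111 and 346 CPM, with 0 of them undetected in either library, and 1.83% and 9.47% of the cells had a UMI of Ncr1, Klrb1c or Klre1. S100a9, a neutrophil gene, was seen in 0.915% and 11.5% of the cells. The 10 neutrophil markers summed to 199 and 226 CPM, with S100a8 at 0 by the rule and Ly6g at 0 in both libraries. The 5 B cell markers summed to 4.45 and 9.395 CPM, with 4 of them at 0 in the PBS library and Pax5 at 0 in both. The 7 T cell markers summed to 8.34 and 19.9 CPM, with Cd3e at 0 by the rule. Results that these lineages could carry are also given in the 364 and 378 cells with 0 UMIs of 14 neutrophil, NK, B and T cell genes, a selection added after seeing the data. The cells it leaves out, for which 1 such UMI was enough, are called cells of mixed RNA. The name is a label only, and the source of these UMIs was not tested. The cells kept had medians of 7549 and 6023.5 UMIs, below those of all chosen cells. The selection does not clear all RNA of other lineages: the cells kept still held 23 and 17 UMIs of Pf4, a platelet gene, 1 and 5 of Cd8a and 0 and 4 of Retnlg, a neutrophil gene. The part of this RNA in the other results was not tested.

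The label was checked against classical monocytes, defined here by at least 2 Ly6c2, 1 Ccr2 and 1 Csf1r UMIs with Ace and Treml4 at 0 and the same exclusions. Of the genes with at least 50 summed UMIs, 2.87% were more than 2-fold higher in nonclassical monocytes and 4.58% lower in the PBS library (7.45% in all), and 3.57% and 3.87% in the UDSP-Hep library (7.44%). In both libraries at once 162 of 8719 (1.86%) were higher and 219 (2.51%) lower. Slc12a2, a sodium-potassium-chloride cotransporter, stood at 62.5 and 139.97 CPM against 1.66 and 3.69 CPM, 37.6-fold (22.3 to 68.2) and 37.9-fold (24.6 to 61.6) higher. Eno3, a muscle-type enolase, was 25.8-fold (16.3 to 43.1) and 42.4-fold (25.03 to 78.01) higher. Ear2 was 12.4-fold (10.4 to 14.99) and 18.4-fold (14.6 to 23.5) higher, though near-identical Ear genes can share its reads.

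Transcription factors and adhesion genes known from this subset stood higher too. Hes1, a Notch target, was 8.22-fold (6.31 to 10.8) and 8.499-fold (6.75 to 10.8) higher than in classical monocytes. Cx3cr1 was 4.81-fold (4.22 to 5.497) and 5.62-fold (4.96 to 6.39) higher, and Spn, which encodes CD43, 5.56-fold (4.69 to 6.61) and 6.83-fold (5.85 to 8.02). Both genes thus set the classes apart in each library. Pou2f2, a transcription factor of B cells and monocytes, was 3.37-fold (3.14 to 3.62) and 5.58-fold (5.17 to 6.03) higher. Nr4a1 was 2.66-fold and 2.18-fold higher and Itgal, the alpha chain of the integrin LFA-1, 3.88-fold and 4.06-fold. S1pr5, a sphingosine-1-phosphate receptor known for the exit of these monocytes from bone marrow, was 23.9-fold (12.03 to 54.1) and 23.99-fold (14.1 to 44.4) higher. The 14 markers not used by the rule summed to 4659 and 7304 CPM in nonclassical monocytes, against 1497 and 2043 CPM in classical monocytes and 1242 and 1572 CPM in C1q macrophages, so they were highest in the cells that bear the label.

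Marks of classical monocytes were mixed. The 10 markers summed to 11809 and 9935 CPM in nonclassical monocytes, against 12170 and 11557 CPM in classical monocytes, with 7 of the 10 lower and 3 (Hp, Mgst1 and Plac8) higher in both libraries. Ly6c2 stood at 1172 and 990.3 CPM, with a UMI in 77.6% and 59.4% of nonclassical monocytes, and at 2220.3 and 2157 CPM in classical monocytes, which were chosen for it. B cells, which should lack Ly6c2, had a UMI of it in 6.12% and 9.52% of cells at median depths of 3065 and 3453 UMIs. Ccr2 stood at 943 and 751 CPM, against 1138 and 1236 CPM. Vcan, a proteoglycan, was 0.472 and 0.4301 times its level in classical monocytes, Fn1 (fibronectin) 0.491 and 0.447 times, and F13a1 (a clotting factor subunit) 0.396 and 0.3799 times. Plac8 was 1.48 and 1.27 times as high, Hp (haptoglobin) 1.16 and 1.38 times and Mgst1 (a glutathione transferase) 1.13 and 1.09 times. The name therefore covers cells with and without detected Ly6c2 and Ccr2 UMIs.

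**Figure D1:**
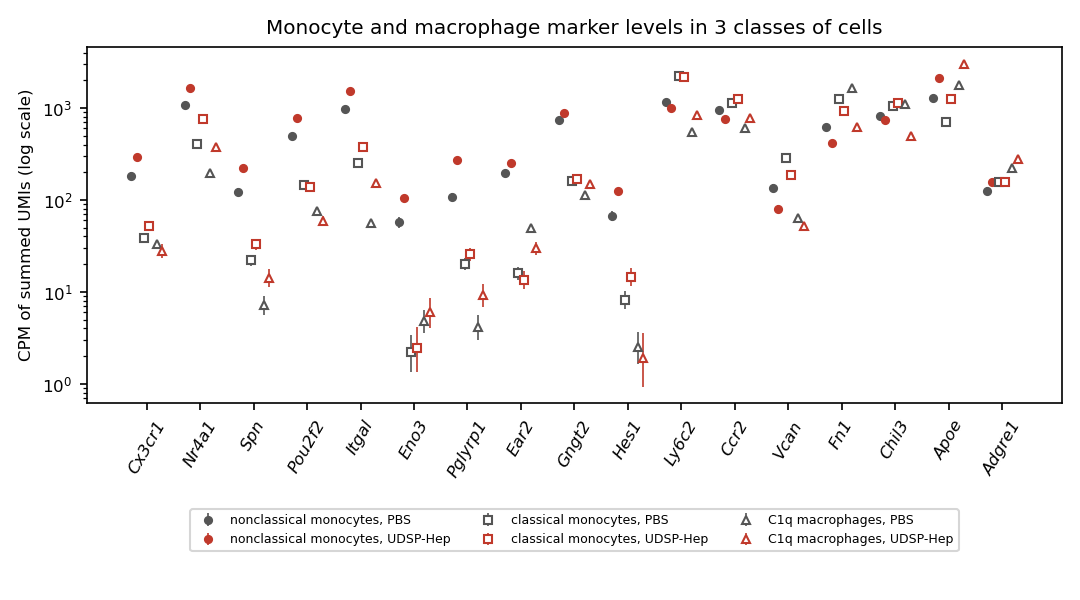
Levels (CPM of summed UMIs, log scale) of 17 genes in nonclassical monocytes, classical monocytes and C1q macrophages of each library, with 95% counting intervals as bars. Cx3cr1 (184 and 294 CPM) and Spn lie highest in nonclassical monocytes, while Ly6c2 (1172 and 990.3 CPM) lies below classical monocytes, which were defined by Ly6c2 and Ccr2.

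Among the genes furthest below classical monocytes were 3 CC chemokines. Ccl2, the ligand of CCR2, stood at 219 and 180.4 CPM against 1402 and 675 CPM, 0.156 times (0.145 to 0.168) and 0.267 times (0.249 to 0.287) as high. Ccl7, another CCR2 ligand, was 0.131 and 0.214 times as high and Ccl8 0.167 and 0.114 times. Arg1, an arginine-degrading enzyme of suppressive myeloid cells, was 0.206 and 0.127 times as high. Spp1 (osteopontin) was 0.0951 and 0.176 times as high, Dab2 (an endocytic adaptor) 0.161 and 0.1497 times and C3ar1 (the C3a receptor) 0.175 and 0.237 times.

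C1q macrophages, with a C1q sum of at least 10, had more genes past the fold. In the PBS library 8.98% of genes were more than 2-fold higher in nonclassical monocytes and 12.5% lower (21.5% in all), and in the UDSP-Hep library 8.19% and 8.49% (16.7%). In both libraries 549 of 8891 (6.17%) were higher and 609 (6.85%) lower. Hpgd, a prostaglandin-degrading enzyme, stood at 94.5 and 129 CPM against 0.872 and 0.964 CPM in macrophages. Slc12a2 was 40.3-fold and 42.7-fold higher and Pglyrp1, a peptidoglycan-binding protein, 25.8-fold and 29.7-fold. Ccl8 was 0.00567 and 0.00584 times as high, Arg1 0.0493 and 0.0329 times and Spp1 0.0607 and 0.0479 times.

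How common these cells were was compared between the libraries. They were 6.13% (5.58 to 6.71) of kept cells after PBS and 9.08% (8.45 to 9.75) after UDSP-Hep, with shares in a ratio of 1.48 (1.32 to 1.66). Since the rule needs detected genes, it was also applied after every cell had been thinned to 1500 UMIs. It then found 171 and 418 cells, 2.47% and 5.76%, in a ratio of 2.33 (1.957 to 2.78). Of cells with a Csf1r UMI they were 9.97% and 18.4%, in a ratio of 1.85 (1.65 to 2.07). Of cells other than neutrophils and NK cells they were 6.398% and 10.8%, in a ratio of 1.69 (1.51 to 1.899). A share is also larger where other cells are fewer: the ratio of shares was 0.552 for classical monocytes and 0.479 for C1q macrophages. More nonclassical monocytes and fewer other cells per tumour cannot be told apart here.

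**Figure D2:**
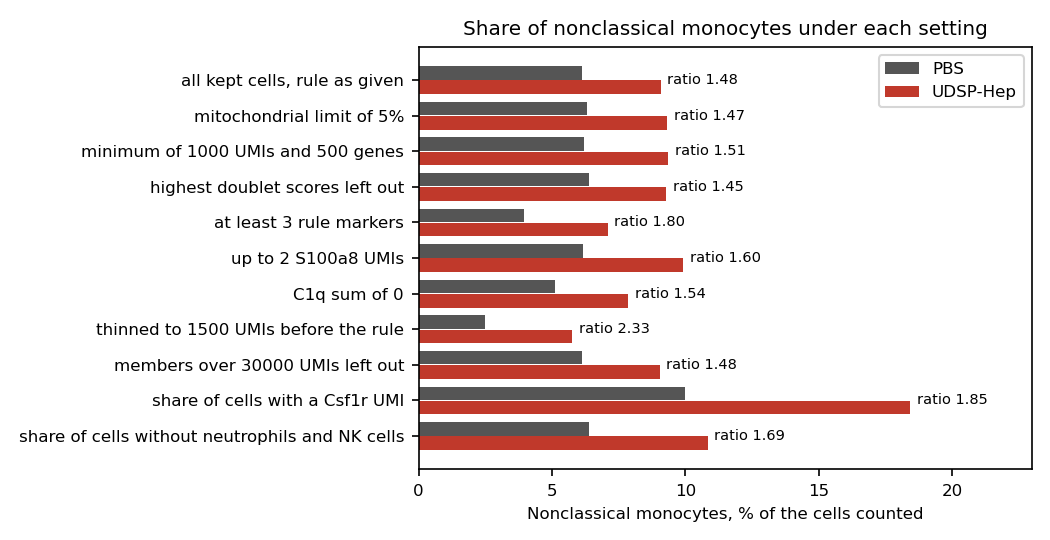
Nonclassical monocytes as a percentage of the cells counted in each library under 11 settings of the rule, the filters or the denominator. The UDSP-Hep bar is the longer in all 11, with ratios from 1.45 with the highest doublet scores left out to 2.33 after thinning.

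The exclusions of the rule acted unequally on the libraries. The marker criterion was met by 616 and 1067 cells, and the exclusions removed 179 and 370. Cells that failed only on S100a8 numbered 5 and 96, of which 3 and 61 had a single S100a8 UMI. Those that failed only on Ccl24 numbered 27 and 2, and only on the C1q sum 35 and 65, of which 1 and 7 had a sum of 3. Just inside that limit 5 and 9 of the chosen cells had a sum of 2, and 364 and 603 had a sum of 0. On the marker side, 156 and 153 of the chosen cells had the minimum of 2 markers, 172 and 221 had 3, 86 and 235 had 4, and 23 and 88 had all 5. A further 121 and 124 cells with only Ace or Treml4 lay just outside.

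The rule markers themselves, given as a description, were higher in the UDSP-Hep library. Ace, angiotensin-converting enzyme, stood at 446 and 694 CPM, Treml4, a receptor for dying cells, at 95.6 and 159 CPM, and Adgre4 at 395 and 599.96 CPM. Ceacam1, an adhesion receptor, stood at 177 and 279.9 CPM, and Cd300e, an activating receptor, at 18.9 and 72.1 CPM. T cells, which should lack Ace, had a UMI of it in 0.203% and 1.24% of cells at median depths of 7013 and 5520 UMIs, against 91.8% and 93.1% of nonclassical monocytes. At 1500 UMIs per cell, Ace was seen in 48.3% and 58.5% of nonclassical monocytes and in 0.102% and 0.382% of T cells.

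Among the chosen cells, marks outside the rule differed with the number of rule markers detected. Between cells with 2 rule markers and cells with 5, Cx3cr1 went from 113 to 324 CPM in the PBS library and from 143 to 487 CPM in the UDSP-Hep library. Itgal went from 618 to 1789.5 CPM and from 858 to 2251 CPM, and Spn from 48.2 to 434 CPM and from 64.3 to 432 CPM. Ly6c2 went the other way, from 1621 to 174 CPM and from 1594 to 267 CPM, and so did Ccr2, from 1221 to 237 CPM and from 1018 to 329.8 CPM. Cells with more of the rule markers thus had less of the classical marks in both libraries. Median depth was lower at 5 markers too, from 8174 to 6453 UMIs and from 7223 to 5899 UMIs, and its part was not tested.

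Ly6c2 divided the cells. Among 1500 UMIs drawn from each cell, which left out 4 and 11 shallower cells, 200 of 433 PBS cells (46.2%, 41.4 to 51.0) and 407 of 686 UDSP-Hep cells (59.3%, 55.5 to 63.0) had no Ly6c2 UMI. Cells without a drawn Ly6c2 UMI had more Cd36, a fatty acid receptor, than cells with one: 2.44-fold (1.95 to 3.05) and 2.91-fold (2.54 to 3.36) in the PBS and UDSP-Hep libraries. S1pr5 was 3.86-fold (2.36 to 6.53) and 2.76-fold (2.11 to 3.65) higher in them, and Spn 1.89-fold and 2.01-fold. Fn1 was 0.575 times and 0.334 times as high and Vcan 0.516 times and 0.329 times. H2-Ab1, an MHC class II chain, was 1.67-fold (1.57 to 1.78) and 1.22-fold (1.16 to 1.29) higher in the cells without a drawn Ly6c2 UMI. Cells without a drawn Ly6c2 UMI had median depths of 6844 and 5973 UMIs and those with one 8533 and 7942, and the part of depth was not tested.

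Genes were then compared between the libraries inside the chosen cells. Of 8499 genes with at least 50 summed UMIs, 664 (7.81%) were more than 1.5-fold higher in the UDSP-Hep library and 205 (2.41%) more than 1.5-fold lower, 10.2% in all. With median-of-ratios scaling the split was 517 higher and 306 lower. The median gene had a log2 ratio of 0.08. Genes described singly were chosen by the bound of the interval nearest to equality, and members of gene groups by lists of known function.

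Among genes with at least 50 CPM in a library and not left out as markers of other cell types, Cd22 was the furthest above equality by that bound. Lcn2, a gene abundant in neutrophils and named here after its values were seen, was under 50 CPM in both libraries and had 4 and 253 UMIs, 43.6-fold (16.8 to 161). Cd22 encodes a sialic acid-binding inhibitory receptor best known from B cells and lies on chromosome 7 at 30865402 to 30880342, minus strand, of GRCm38. Its level was 5.002 CPM (2.96 to 7.91) from 18 UMIs in the PBS library and 82.3 CPM (74.7 to 90.4) from 429 UMIs in the UDSP-Hep library, 16.4-fold (10.3 to 28.01) higher. A UMI was seen in 2.06% and 24.2% of nonclassical monocytes, and at 1500 UMIs per cell in 0.924% (0.252 to 2.35) and 10.5% (8.303 to 13.03). T cells, read as background, were at 0.508% and 0.763% and, at 1500 UMIs, at 0.204% and 0.0956%. In classical monocytes Cd22 stood at 1.44 and 6.51 CPM, in C1q macrophages at 13.5 and 9.25 CPM and in B cells at 148 and 279.9 CPM.

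UMIs of B cell genes were few in the cells with Cd22. In the UDSP-Hep library, 169 nonclassical monocytes with a Cd22 UMI (median 7538 UMIs) held 2 UMIs of Cd79a, 8 of Cd79b and 0 of Ms4a1, genes of the B cell receptor and CD20. The 528 cells without one (median 6666.5 UMIs) held 5, 32 and 1. In the PBS library 9 cells had a Cd22 UMI, and they held 2 UMIs of Cd79b, 25.1 CPM against 3.98 CPM in the others, 6.31 times (0.696 to 27.5). In cells with 0 UMIs of the 14 genes of other lineages, Cd22 stood at 3.13 and 81.7 CPM, 26.1-fold (13.5 to 57.9) higher. That ratio rests on 9 and 196 UMIs in 364 and 378 cells, and B cell RNA as a source of Cd22 was not tested. In the UDSP-Hep library, cells with Cd22 had 1.64 times (1.45 to 1.85) the Spn level of those without, 1.67 times (1.48 to 1.88) that of Cd36 and 0.742 times (0.695 to 0.792) that of H2-Ab1. In the 9 PBS cells these were 1.66 times (0.940 to 2.73) for Spn, 0.892 times (0.356 to 1.86) for Cd36 and 1.53 times (1.28 to 1.81) for H2-Ab1, so H2-Ab1 lay on opposite sides in the libraries. Both Ly6c2 groups showed the library difference in Cd22: 8.05 and 97.7 CPM without a drawn Ly6c2 UMI, and 2.85 and 61.95 CPM with one.

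**Figure D3:**
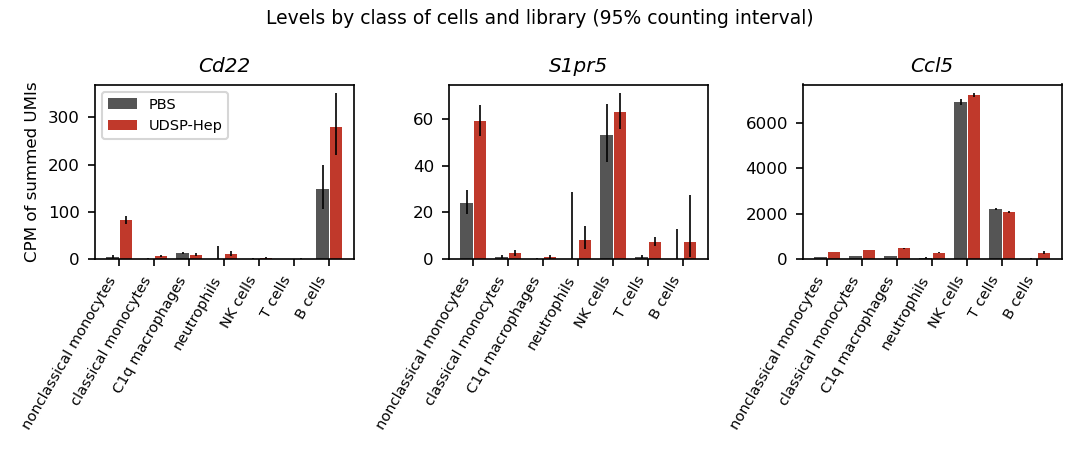
Levels (CPM of summed UMIs) of Cd22, S1pr5 and Ccl5 in 7 classes of cells of each library, with 95% counting intervals as bars. Cd22 is high in B cells and in UDSP-Hep nonclassical monocytes (82.3 CPM), S1pr5 in nonclassical monocytes and NK cells, and Ccl5 in NK cells (6918 and 7231 CPM).

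Genes that NK cells express strongly were also among the highest, and their ratios were smaller once cells with RNA of other lineages were left out. Ccl5, a chemokine for T and NK cells, stood at 95.9 and 319.6 CPM, 3.33-fold (2.97 to 3.75), and at 6918 and 7231 CPM in NK cells. Without those cells it stood at 62.7 and 59.6 CPM, 0.952 times (0.759 to 1.19). Serpinb9, an inhibitor of granzyme B, was 5.72-fold (4.001 to 8.43) higher in all cells and 2.15-fold (1.27 to 3.697) without them. Il2rb, a chain of the IL-2 and IL-15 receptors, was 4.199-fold (3.25 to 5.49) and 2.395-fold (1.302 to 4.57).

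Ets1, a transcription factor abundant in lymphocytes, stood at 20.01 and 79.96 CPM, 3.996-fold (3.11 to 5.21), and was 3.67-fold (2.61 to 5.24) higher without the cells of mixed RNA. Its library ratio in classical monocytes was 1.41 (1.203 to 1.65). Fpr2, a formyl peptide receptor of phagocytes, stood at 32.5 and 123 CPM, 3.77-fold (3.09 to 4.63), and was 2.95-fold (2.32 to 3.76) higher without them. Neutrophils had Fpr2 at 233 and 540.05 CPM. Jaml, an adhesion molecule for leukocyte passage, was 2.95-fold (2.47 to 3.54) higher, and Pglyrp1 2.56-fold (2.29 to 2.88), with ratios of 2.83 and 2.71 without those cells. H2-Q6, a class I gene with near-identical neighbours, was 2.99-fold higher. Tpm3-rs7, a tropomyosin-related copy whose reads may be shared with Tpm3, was 9.02-fold higher here, 8.35-fold in classical monocytes and 7.54-fold in C1q macrophages.

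The genes furthest below equality by the same rule included a pair of heat shock genes, whose list had 2 of 12 lower, that pair, and 10 short of the fold. Hspa1a and Hspa1b, near-identical copies of an inducible HSP70, stood at 399 and 110.1 CPM (0.276 times) and at 593 and 196 CPM (0.331 times). Hspa1a was 0.0687 times as high in classical monocytes and 0.152 times in C1q macrophages, so the libraries differed in it in all 3 classes. Atf3, a stress-induced factor, was 0.514 times as high (0.482 to 0.548), Ahr, the aryl hydrocarbon receptor, 0.512 times, and Egr1, an immediate early factor, 0.558 times (0.508 to 0.613). Egr1 went the other way in classical monocytes, at 1.66 times (1.56 to 1.78). Arg1 stood at 161 and 44.7 CPM, 0.277 times (0.237 to 0.323). Fabp5, a fatty acid carrier, was 0.567 times as high, Wfdc17 0.534 times, the caspase Casp6 0.481 times and AA467197 0.4795 times.

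Some of these differed under other settings. Thinning before the rule cut the counts compared to 1500 UMIs per cell as well as changing the cells chosen. Its ratios therefore rest on fewer UMIs and are given without intervals. When cells were thinned to 1500 UMIs before the rule, Arg1 was 2.51 times and AA467197 1.84 times as high in the UDSP-Hep library. Casp6 at 0.818 times and Atf3 at 0.702 times then fell short of 1.5-fold. With at least 3 rule markers Arg1 was at 0.702 times. Hspa1a and Hspa1b, at 0.0895 and 0.158 times, were still past the fold after thinning.

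**Figure D4:**
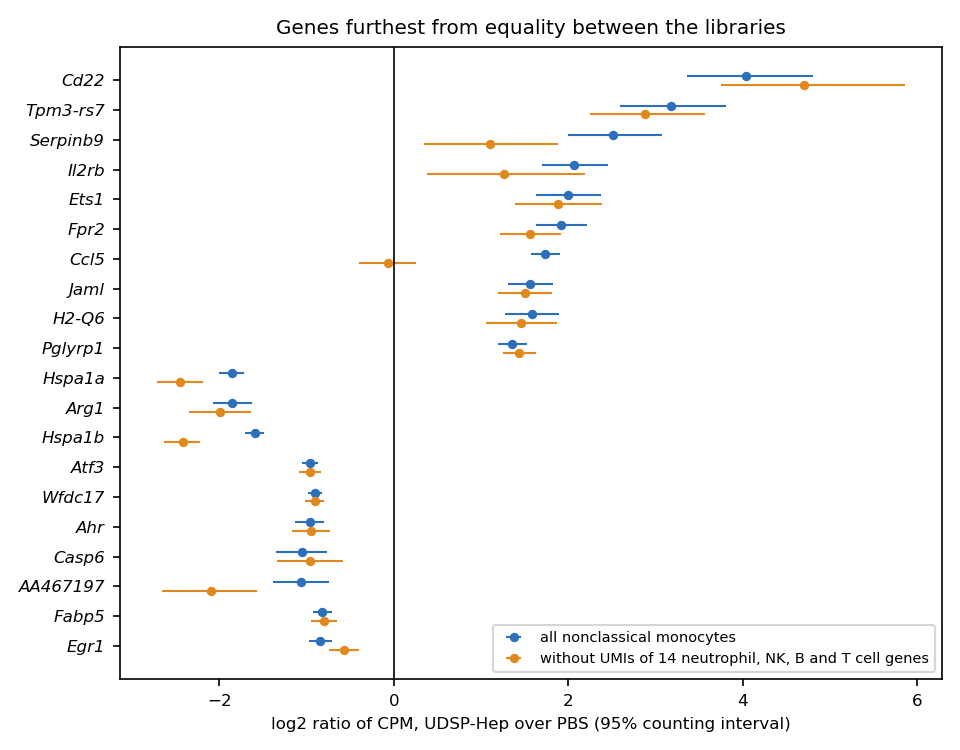
Log2 ratios of CPM (UDSP-Hep over PBS, 95% counting intervals) of the 10 genes furthest above and the 10 furthest below equality by the naming rule, in all nonclassical monocytes and in those with 0 UMIs of 14 neutrophil, NK, B and T cell genes. Cd22 lies furthest right in both, and Ccl5 moves from 1.74 to -0.07.

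Genes of adhesion and patrolling were past the fold in 1 direction. Of 17 measured, 6 were higher and 0 lower, against 7.81% and 2.41% of all genes, and their median log2 ratio was 0.30. Cx3cr1 stood at 184 and 294 CPM, 1.59-fold (1.45 to 1.75), Itgal at 971 and 1514 CPM, 1.56-fold (1.499 to 1.62), and Spn at 123 and 225 CPM, 1.83-fold (1.64 to 2.05). These levels also went up with the number of rule markers, and 86 and 235 cells had 4 of them. With 3 rule markers Cx3cr1 stood at 199 and 256 CPM, Itgal at 1022 and 1209 CPM and Spn at 118 and 145 CPM. With 4 they stood at 252 and 347, 1328 and 1929, and 196 and 320 CPM. The part of marker number in the ratios was not tested. Pecam1, a junction molecule of vessel walls and leukocytes, was 1.92-fold higher and Cd9, a tetraspanin, 2.34-fold. Pecam1 had a log2 ratio of -0.60 in cells with a drawn Ly6c2 UMI. The integrin chains Itgam, Itga4, Itgb1 and Itgb2 had ratios between 0.989 and 1.37. In classical monocytes 0 of 17 genes of this list passed the fold, where 9.2% of all 9261 genes were higher and 2.56% lower, 11.8% in all, so that count is near the share over all genes.

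S1pr5, also of this list, stood at 23.9 and 59.1 CPM, 2.47-fold (1.94 to 3.18). NK cells had it at 52.98 and 62.9 CPM, and it was 2.43-fold (1.83 to 3.25) higher in the cells with 0 UMIs of the 14 genes. After thinning before the rule S1pr5 was at 1.21 times. In cells without a drawn Ly6c2 UMI, S1pr5 was 1.97-fold, Cx3cr1 1.51-fold, Itgal 1.595-fold and Spn 1.72-fold higher. In cells with one, the adhesion list had only 2 of 17 higher and 1 lower. It had 4 of 17 higher and 0 lower with at least 3 rule markers, and 5 of 16 higher and 1 lower after thinning. These counts are a description only, since the shares of all genes in these sets of cells are not given here.

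Transcription factors of monocyte fate had 5 of 20 higher and 0 lower (7.81% and 2.41% of all genes). Their median log2 ratio was 0.13. Nr4a1 stood at 1076 and 1636 CPM, 1.52-fold (1.46 to 1.58), and was also 1.86-fold (1.78 to 1.94) higher in classical monocytes and 1.93-fold in C1q macrophages. Pou2f2 stood at 493 and 781 CPM, 1.58-fold (1.496 to 1.67), with a ratio of 0.955 (0.874 to 1.04) in classical monocytes. Both genes also went up with the number of rule markers. With 3 rule markers Nr4a1 stood at 1007 and 1431 CPM and Pou2f2 at 497 and 623 CPM. With 4 they stood at 1585 and 1967 and at 673 and 996 CPM. The part of marker number in these 2 ratios was not tested. Hes1 was 1.84-fold higher, the Wnt effector Tcf7l2 1.67-fold and the repressor Bcl6 1.696-fold. After thinning before the rule Hes1 was at 0.957 times and Tcf7l2 at 1.42 times, so both calls were lost. Cebpb was at 1.31 times, Klf4 at 1.41 times and Spi1, which encodes PU.1, at 1.09 times.

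Chemoattractant receptors had the highest median of the 21 lists, 0.48, with 6 of 15 higher and 1 lower (7.81% and 2.41% of all genes). Besides Cx3cr1, Fpr2 and S1pr5, the higher ones were C5ar1 (the C5a receptor, 2.05-fold), Ccrl2 (1.56-fold) and Fpr1, with 3 and 56 UMIs, 12.9-fold (4.19 to 64.3). Without cells of mixed RNA C5ar1 was 1.69-fold higher and the list's median 0.27. P2ry12, a nucleotide receptor with 36 and 34 UMIs, was the lower member, at 0.652 times (0.396 to 1.07). Ccr2, short of the fold, stood at 0.797 times (0.761 to 0.834).

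Chemokines went both ways, with 6 of 17 higher and 4 lower (7.81% and 2.41% of all genes) and a median log2 ratio of -0.06. Cxcl2, a neutrophil attractant, stood at 192 and 391.7 CPM, 2.04-fold, and at 1.47-fold without cells of mixed RNA. Cxcl9, which attracts T cells, was 1.58-fold (1.45 to 1.73) higher but at 0.994 times after thinning. Ccl3, Ccl8, Ccl12 and Ccl24 were the lower ones, Ccl3 at 0.663 times and Ccl24, which the rule limits, at 0.338 times. With cells of mixed RNA left out, the list had 1 of 14 higher and 7 lower and a median of -0.52. The share of all genes in that set of cells is not given here, so this count is a description only.

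Lipid handling had 6 of 17 higher and 2 lower (7.81% and 2.41% of all genes). Cd36 stood at 98.4 and 224 CPM, 2.28-fold (2.02 to 2.57), and in classical monocytes at 69.4 and 58.2 CPM. Fabp4, a fatty acid carrier, was 2.05-fold higher, the cholesterol exporter Abca1 2.18-fold, the apolipoproteins Apoc2 and Apoe 1.99-fold and 1.64-fold, and the lipid sensor Pparg 1.58-fold. Fabp5 and Trem2 were the lower ones, Trem2, a lipid-binding receptor, at 0.601 times.

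The list of Fc and inhibitory receptors, which also holds activating ones, had 3 of 19 higher and 0 lower (7.81% and 2.41% of all genes). Fcgr4, an IgG receptor known from this subset, stood at 276 and 465 CPM, 1.69-fold (1.57 to 1.82), Lilra5 was 2.93-fold (2.19 to 3.97) higher and Pilrb2 1.79-fold. The IgG receptors Fcgr2b and Fcgr3 were at 0.781 and 0.792 times.

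Alternative activation and tissue remodelling, a list that holds Ccl24, had 1 of 15 higher and 6 lower (7.81% and 2.41% of all genes). Its median was -0.15. Besides Arg1, Spp1 and Ccl24, the matrix proteases Mmp8, Mmp13 and Mmp19 were lower, at 0.498, 0.23999 and 0.619 times, and the protease Mmp14 was 1.58-fold higher. Glycolysis and hypoxia had 0 of 19 higher and 5 lower, against the same shares of all genes. The lower ones included the HIF targets Egln3 (0.322 times), Bnip3 (0.546 times) and Slc2a1, the glucose transporter GLUT1 (0.659 times). Ero1l, at 0.564 times, was at 1.27 times after thinning. The lower calls of this list were lost under 2 alternatives: 0 of 12 were lower and 1 higher after thinning, and 0 of 18 lower and 1 higher in cells without a drawn Ly6c2 UMI. Its median was 0.03 in the latter cells, against -0.16 in all. Shares of all genes under these 2 alternatives are not given here.

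MHC class II genes, which present antigen to CD4 T cells, were short of the fold except for 1 of 11, which was lower (7.81% of all genes higher and 2.41% lower). H2-Ab1 stood at 1158 and 1056 CPM, 0.912 times (0.876 to 0.9496), H2-Aa at 1261 and 1165 CPM, and Cd74, the invariant chain, at 3776 and 3183 CPM. Ciita, the master regulator of these genes, was at 0.546 times (0.448 to 0.663). In classical monocytes of the same libraries H2-Ab1 was 1.68-fold (1.64 to 1.72) higher, H2-Aa 1.82-fold and Ciita 1.27-fold, and 6 of 12 list members were more than 1.5-fold higher, against 9.2% of all genes in that class. In C1q macrophages H2-Ab1 was 1.45-fold higher. The ratio of H2-Ab1 in nonclassical monocytes lay below both of these. Counting intervals leave out the spread between cells and between mice, so whether the classes differ was not tested. Per cell, H2-Ab1 had medians of 132 and 115 CPM and 90th percentiles of 3587 and 2344 CPM. The list's median, -0.13, was -0.999 after thinning before the rule, with 7 of 8 genes past the fold and lower, and 0.02 in cells with a drawn Ly6c2 UMI. With every cell weighing the same, 4 of 11 were lower. The shares of all genes under these other settings are not given here, so the counts under them are a description only.

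The higher counts of the interferon lists were near the share over all genes (7.81%), while their lower counts were above it (2.41%). The type I interferon response had 2 of 22 higher and 2 lower, with a median of -0.26. Rsad2, an antiviral enzyme, was at 0.582 times and Ifit3 at 0.631 times, while Ifi44 was 2.399-fold and Isg15, a ubiquitin-like modifier, 1.501-fold higher. Rsad2 was at 2 times after thinning before the rule. The interferon-gamma response had 2 of 19 higher and 2 lower, and Cd274, the ligand PD-L1, was at 1.39 times (1.27 to 1.54). The inflammatory list had 2 of 19 higher and 0 lower: Trem1, a receptor that amplifies inflammation, 2.04-fold and Nos2, which makes nitric oxide, 1.65-fold. Il1b stood at 1518 and 2184 CPM, 1.44-fold (1.39 to 1.49), short of the fold.

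**Figure D5:**
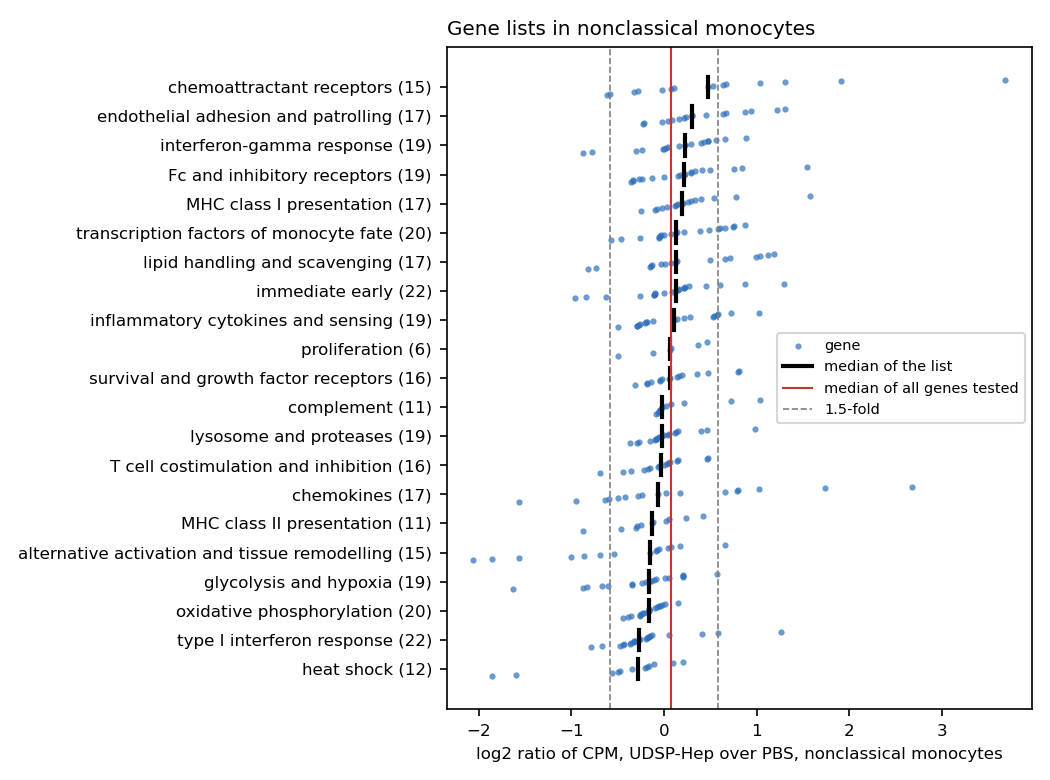
Log2 ratios of CPM (UDSP-Hep over PBS) of the genes of 21 lists in nonclassical monocytes, 1 point per gene, with each list's median, the median of all 8499 genes (0.08) and the 1.5-fold limits as lines; genes measured are in brackets. Chemoattractant receptors have the highest median, 0.48, and heat shock genes the lowest, -0.28.

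The remaining lists are given against the shares over all genes, 7.81% higher and 2.41% lower. Immediate early genes had 3 of 22 higher and 3 lower, MHC class I 2 of 17 higher and 0 lower, complement, which holds the rule's C1q genes, 2 of 11 higher and 0 lower, survival and growth factor receptors 2 of 16 higher and 0 lower, and heat shock 0 of 12 higher and 2 lower. Bcl2, a survival gene, was 1.76-fold (1.46 to 2.13) higher. Csf1r, the receptor of a growth factor these cells need, stood at 867 and 904 CPM, 1.04-fold (0.996 to 1.09). Lysosome genes had 1 of 19 higher and 0 lower, the higher one being Cd63, and costimulation genes 0 of 16 higher and 1 lower, the lower one being Lgals3. Oxidative phosphorylation (20 genes) and proliferation (6) had 0 past the fold in either direction.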

How the data were processed

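Droplet RNA-seq (10x Genomics) measured CD45+ cells in 1 PBS and 1 UDSP-Hep library. The authors deposited whole-number UMI counts per gene and cell, and per the file headers these come from Cell Ranger 7.0.0. The submitters' processing notes give mm10 and list Seurat without stating its use.

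Cells with at least 200 genes, 500 UMIs and at most 10% mitochondrial UMIs were kept, and counts were summed per library and class. Ratios of CPM have exact conditional binomial intervals, levels exact Poisson, shares Clopper-Pearson and ratios of shares Katz intervals, all 95% and for counting error only. The 3 tumours of a library are not separate samples here, so no test or p-value was computed. Genes with at least 50 summed UMIs over both libraries were compared. Genes were named by a rule: at least 50 CPM where higher, then the 10 per direction whose nearer interval bound lay furthest from equality. Genes of mitochondria, ribosomes, haemoglobin and antigen receptor segments, sex-linked markers, the genes of the selection rule and markers of other cell types were left out, and list members were added as examples. Members and lists were chosen with earlier results of these data known. The scripts were tested on simulated data.

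Alternatives were other filters, doublet scores, rule limits, thinning, scaling, equal cell weights and denominators. Leaving out cells over 30000 UMIs, cells with RNA of other lineages, and the Ly6c2 groups were added after seeing the data. Gene coordinates are GENCODE M21 (GRCm38; 481 of 481 matched) and promoters RefSeq GRCm38.p6. Software was Python 3.11.15, numpy 2.4.6, scipy 1.17.1, pandas 2.3.3, scanpy 1.11.5 and matplotlib 3.10.9. Some genes are not reported here.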

Additional observations from a re-analysis of the deposited data

How the results depend on the processing

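No paired analysis was possible because each group is 1 library, and for the same reason no replicate could be left out. The cause of each change below was not tested. The ratio of shares, 1.48, was 1.80 with at least 3 rule markers, 2.33 after thinning, 1.85 among cells with a Csf1r UMI and 1.69 without neutrophils and NK cells. The other 6 alternatives moved it less. The 664 higher and 205 lower genes became 1083 and 381 with at least 20 summed UMIs and 242 and 75 with at least 200. The higher genes were 368 after thinning and 430 in cells with a drawn Ly6c2 UMI. Against classical monocytes, at least 20 summed UMIs gave 393 higher genes in the PBS library and 550 lower in the UDSP-Hep library, and thinning gave 164 higher and 260 lower (PBS) and 220 lower (UDSP-Hep).

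Log2 ratios that changed sign after thinning before the rule were those of Arg1 (1.33), AA467197 (0.88), Hes1 (-0.0627), Cxcl9 (-0.0094), Ero1l (0.34) and Rsad2 (1). Ccl5 was at -0.0717 without cells with UMIs of the 14 genes of other lineages, and Pecam1 at -0.60 in cells with a drawn Ly6c2 UMI. Single calls were followed for 49 of the 869 genes past the fold. They were picked by the naming rule or by hand, and genes of the selection rule were among them. The counts are thus a description of these 49 only. Of them, 36 were past the fold in the same direction after thinning and 39 with at least 3 rule markers. With median-of-ratios scaling 43 were, and 45 without cells with UMIs of the 14 genes.

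The MHC class II median of -0.13 was -0.31 with a C1q sum of 0, -0.34 with at least 3 rule markers, -0.56 with every cell weighing the same, -0.28 without the highest doublet scores and -0.30 without cells over 30000 UMIs. It was -0.54 without cells with UMIs of the 14 genes, -0.999 after thinning, and -0.56 and 0.0227 in cells without and with a drawn Ly6c2 UMI. After thinning, medians were 0.18 for alternative activation, 0.0693 for glycolysis, 0.82 for chemoattractant receptors, 0.0208 for MHC class I, 0.59 for inflammatory genes and 0.31 for transcription factors. With at least 3 rule markers they were 0.0198 for immediate early genes, 0.52 for lipid handling and -0.11 for proliferation. In cells without a drawn Ly6c2 UMI they were -0.0272 for immediate early genes, 0.42 for lipid handling, 0.25 for complement, 0.03399 for glycolysis and -0.11 for heat shock. In cells with one they were -0.46 for heat shock, 0.28 for chemoattractant receptors and 0.15 for endothelial adhesion. Alternative activation was -0.53 with a C1q sum of 0, and proliferation 0.52 with up to 2 S100a8 UMIs. Without cells with UMIs of the 14 genes chemokines were -0.52 and chemoattractant receptors 0.27.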
